A study of Mus musculus with 4 samples.

Results

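Enzymes that add or remove methyl and acetyl groups on histones and DNA were followed at the RNA level in mouse macrophages grown from bone marrow. Members were chosen by gene symbol, and the rule itself reads no measured value: it takes the Kdm, Hdac, Kmt2, Kmt5, Setd, Dnmt1, Dnmt3, Tet, Sirt, Prmt and Kat families together with Ezh1, Ezh2, Crebbp and Ep300. The rule matched 79 of 18256 listed genes, of which 77 are enzymes or their family members and 2, Dnmt3aos and Kat2b-ps, are a non-coding RNA and a pseudogene. Of the 77, 38 were counted as writers, which place a group, and 39 as erasers, which take it off. Sides were given by gene family. Writers thus include Dnmt3l and Kmt2e, which have no known methyltransferase activity of their own, and Setd3, an actin histidine methyltransferase. M1 macrophages were wild-type cells given 20 ng/ml interferon-gamma (IFN-γ) and 100 ng/ml bacterial lipopolysaccharide (LPS) for 24 h. M0 macrophages were wild-type cells left unstimulated over the same 24 h. Both groups came from wild-type marrow grown for 7 days with 20 ng/ml macrophage colony-stimulating factor (MCSF). Whether the M1 medium still held MCSF is not stated in the labels. Each group held 2 libraries of total RNA depleted of ribosomal RNA. The labels give neither the age, sex or strain of the mice nor whether the libraries of a group came from separate animals or cultures. The p-values thus rest on the spread among these libraries alone, and that spread may be technical.

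Chromatin is marked by methyl groups on lysines and arginines of histones, by acetyl groups on lysines, and by methyl groups on cytosines of DNA. Writers draw on S-adenosylmethionine or acetyl-CoA. Most demethylases and the TET enzymes need iron and alpha-ketoglutarate, zinc-dependent HDACs need neither, and sirtuins consume NAD. In macrophages such enzymes are known for setting the enhancers of the lineage and for limiting or permitting inflammatory genes after LPS. RNA levels say nothing of the activity of the enzymes or of the marks themselves.

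The M1 libraries held 17838606 and 17633945 counts and the M0 libraries 18987705 and 15921466, of which the enzyme genes took 0.384% and 0.435% in M1 and 0.530% and 0.486% in M0. Levels are given as CPM, counts scaled to library size with TMM factors, and 3 counts in a library correspond to 0.144 to 0.185 CPM. The 10 macrophage markers were all present, with summed levels of 30018 to 30506 CPM in M1 and 21399 to 23760 CPM in M0. Of 6 stromal markers, 4 were higher and 2 lower in M1, and their sum was 456 to 512 CPM in M1 against 680 to 702 CPM in M0, mostly Col1a1 and Col1a2. Of 8 tested neutrophil markers 2 were higher and 5 lower, with a median log2 fold change of -1.77. Their sum was 356 to 382 CPM in M1 and 345 to 356 CPM in M0. Most of the M1 sum came from Csf3r, at 233 and 246 CPM in M1 against 108 and 108 CPM in M0. In M0 Csf3r was not most of the sum, with S100a8 at 83.2 and 98.3 CPM and S100a9 at 75.4 and 72.6 CPM. The T and NK cell list summed to 4.80 to 5.23 CPM in M1 and 21.6 to 22.4 CPM in M0, nearly all from Cd4, its single tested gene, which was lower in M1. Its genes Cd3g and Ncr1 had no count. The B and plasma cell list summed to 1.23 to 3.94 CPM in M1 and 4.58 to 5.37 CPM in M0, mostly Cd79b, and Ms4a1 had no count. Of 5 tested dendritic cell markers 2 were higher and 3 lower, with sums of 6.52 to 8.93 CPM in M1 and 8.23 to 8.92 CPM in M0. Erythroid markers had no count in M1 and 0.144 to 0.464 CPM in M0. Beside these marker counts, 24.2% of all tested genes were higher and 24% lower. In such bulk samples fewer cells of a type and less RNA per cell cannot be told apart, and the part of other cells in the results was not tested.

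Of the 75 enzyme genes that passed the filter on low counts, 12 were higher and 17 lower in M1 than in M0, and 46 did not pass the test (edgeR quasi-likelihood test, adjusted p under 0.05). Across all 12966 tested genes 48.2% were called, 24.2% higher and 24% lower, and among the enzymes 38.7% were called. Counts of calls in role classes, smaller groups and marker lists stand beside the 24.2% higher and 24% lower of all tested genes. Writers gave 6 higher and 8 lower calls of 38, and erasers 6 higher and 9 lower of 37. Dnmt3l was among the higher writers and Kmt2e among the lower ones. The median log2 fold change was -0.12 for writers and -0.16 for erasers, beside -0.02 for all tested genes. Each side held both rises and falls. The libraries of the groups did not overlap for 53 of the 75 enzymes (70.7%), beside 74.9% of all tested genes. Changes of at least 2-fold were few: Dnmt3l, Hdac1 and Sirt6 at least doubled, and Dnmt3a, Setd7 and Sirt1 at least halved, which is 3 of 75 in each direction against 9.93% and 11.6% of all tested genes.

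**Figure D1:**
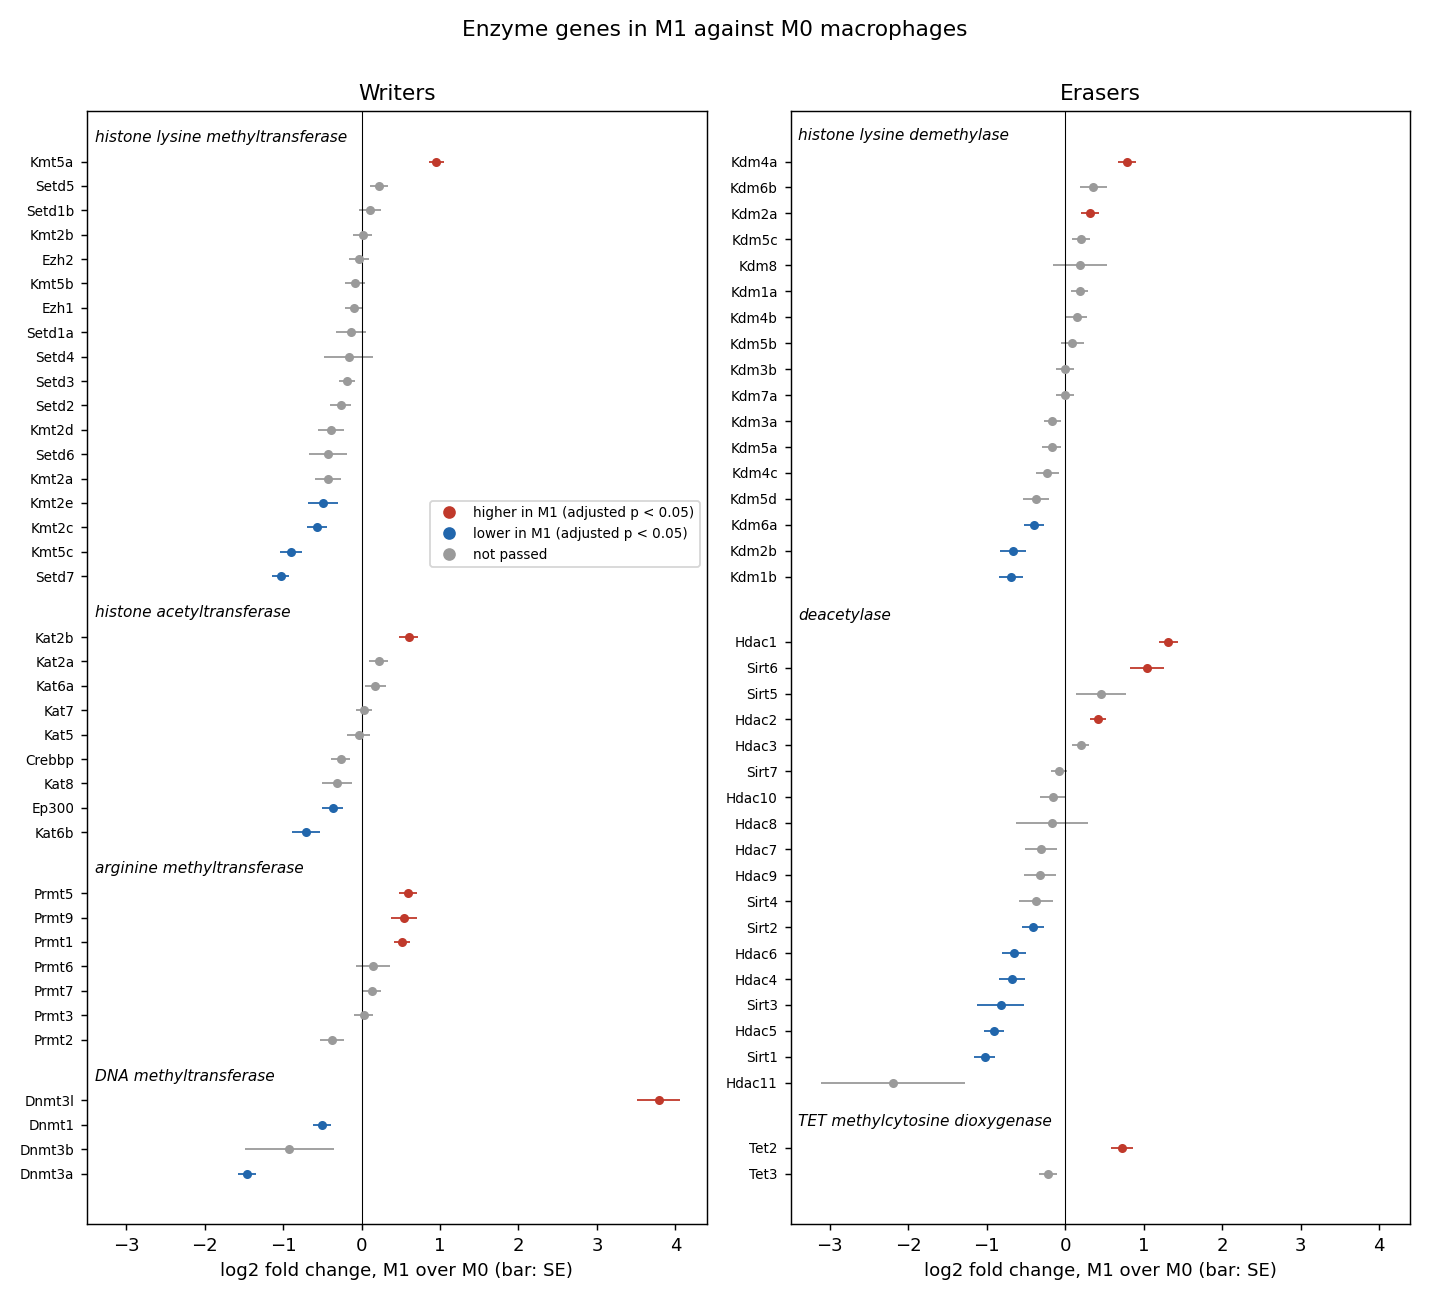
Log2 fold change of M1 over M0 with its standard error for the 75 tested enzyme genes, writers on the left and erasers on the right, in their role classes; red points were higher and blue points lower in M1 and grey points did not pass. Most points lie within 1 log2 unit of 0, with Dnmt3l at 3.78, Hdac11 at -2.20 and Dnmt3a at -1.46 the farthest from it.

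Calls of 9 enzymes kept their direction and passed in all 12 alternative analyses: Dnmt3l, Hdac1, Kmt5a and Kdm4a as higher, and Dnmt3a, Setd7, Sirt1, Hdac5 and Kmt5c as lower. The other 20 calls were lost in at least 1 of them, most often without M0 replicate 1 (15 calls, with 23.7% of all genes called) or without M0 replicate 2 (17 calls, with 25.3% of all genes called). Scaling by library totals moved the median of all genes by -0.252 and gave 8 higher and 37 lower enzymes in place of 12 and 17. With upper-quartile factors, which moved that median by -0.104, the enzymes gave 11 higher and 25 lower. Changes below are relative to the TMM scale. Over all genes the called share was 49% with upper-quartile factors (20.1% higher, 28.9% lower) and 52.4% on library totals (15.6% higher, 36.8% lower). It was 48.3% with relative log expression factors (24.5% higher, 23.8% lower), 44.1% in DESeq2 (22.6% higher, 21.5% lower) and 48.7% in limma-voom (24.5% higher, 24.2% lower). It was 37.1% with no filter (18.6% each way), 50.3% with a stricter one (25.1% higher, 25.2% lower) and 45.7% with the replicate number as a block (22.8% higher, 22.9% lower). Leaving out libraries gave 12.7% higher and 11% lower without M0 replicate 1, and 13.7% higher and 11.6% lower without M0 replicate 2. Without M1 replicate 1 the share was 40.6% (20.4% higher, 20.2% lower), and without M1 replicate 2 it was 43.2% (22% higher, 21.2% lower).

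**Figure D2:**
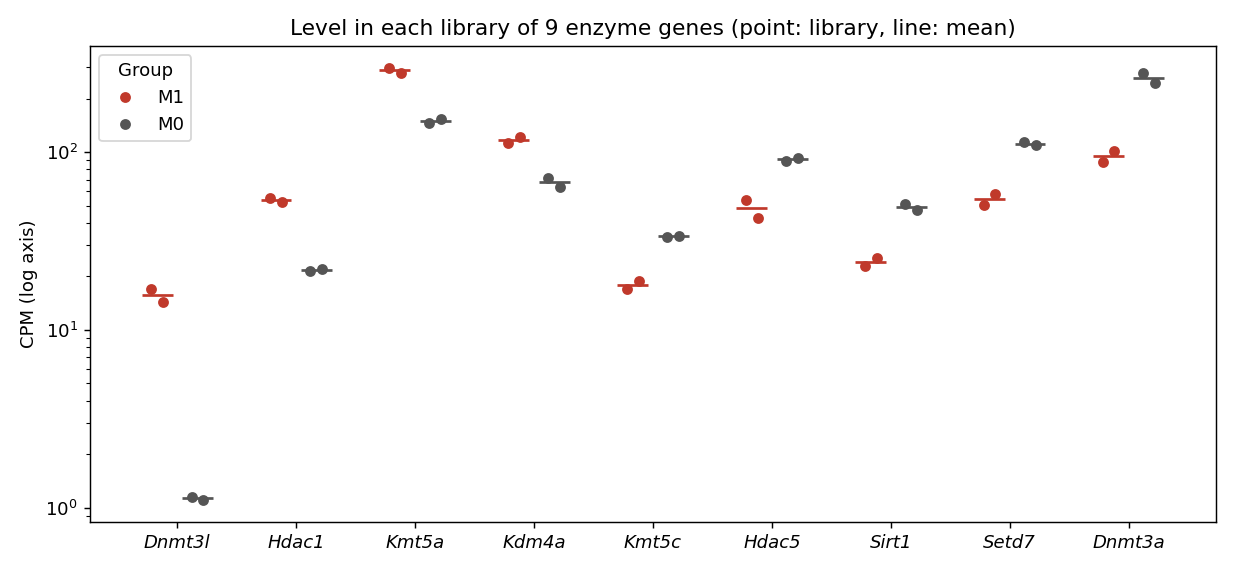
CPM on a log axis in each library of the 9 enzyme genes whose calls held in every alternative, with M1 in red left of M0 in grey and a line at each mean. Dnmt3l shows the widest gap, at 14.4 to 16.9 CPM in M1 against 1.10 to 1.15 CPM in M0.

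The DNA methylation enzymes held both the largest rise and the largest fall that passed among all the enzymes. Dnmt3l encodes a relative of the DNA methyltransferases that has no catalytic activity of its own and stimulates DNMT3A and DNMT3B, and it is best known from germ cells. Dnmt3a encodes a de novo DNA methyltransferase, which is often lost in clonal blood cells. The stretches before their annotated starts, with that of Kdm4a described further on, are shown as those of the largest rise, the largest fall and a rise among the erasers. Each printed stretch holds no annotated exon. The sequences are from RefSeq on GRCm38.p6, read 5′ to 3′ on the strand of the gene, and capitals mark motif matches.
Dnmt3l, chr10:78049592-78049841, plus strand: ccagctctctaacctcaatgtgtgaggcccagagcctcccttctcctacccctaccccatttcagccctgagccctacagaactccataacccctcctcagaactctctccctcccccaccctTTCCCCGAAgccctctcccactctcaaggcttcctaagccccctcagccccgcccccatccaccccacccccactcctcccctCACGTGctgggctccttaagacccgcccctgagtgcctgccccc
Dnmt3a, chr12:3806730-3806979, plus strand: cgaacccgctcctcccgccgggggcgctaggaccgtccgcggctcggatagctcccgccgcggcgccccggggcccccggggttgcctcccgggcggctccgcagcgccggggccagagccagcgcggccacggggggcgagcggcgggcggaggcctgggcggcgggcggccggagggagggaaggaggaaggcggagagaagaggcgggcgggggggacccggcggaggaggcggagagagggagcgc
Kdm4a, chr4:118180091-118180293, minus strand: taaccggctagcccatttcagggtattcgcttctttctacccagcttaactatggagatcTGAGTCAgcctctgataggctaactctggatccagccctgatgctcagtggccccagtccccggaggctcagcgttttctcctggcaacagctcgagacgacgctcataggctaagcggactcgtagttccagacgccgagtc
The printed Dnmt3l stretch precedes 1 of 3 annotated starts and holds a GAS motif (TTCNNNGAA), whose first base lies 127 bases before the start, and an E-box (CACGTG) 44 bases before it. The windows of the other 2 Dnmt3l starts, among them the outermost, held none of the 7 motifs searched. The Kdm4a stretch holds an AP-1 motif (TGANTCA) whose first base lies 190 bases before the start in the promoter table. That start lies within the annotated gene, and the 47 bases between it and the printed stretch were left out because they fall inside the gene. No motif was found in the Dnmt3a stretch, while 1 of the 2 other Dnmt3a windows held a match. Counts per gene do not say which start was in use.

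Motifs were searched on both strands in the 250 bases before every RefSeq start, and 65 of the 77 enzymes had such a window. GAS was found for 6 of the 65 (Dnmt3l, Hdac7, Kdm3a, Kmt2d, Setd7 and Sirt7), against 8.13% of all genes with a window. AP-1 also occurred in 6 (Hdac9, Kat2b, Kat8, Kdm3a, Kdm4a and Kdm5c), against 7.82% of all genes. The E-box was in 8, against 6.86%. ISRE (GAAA, 2 bases of any kind, GAAA), E2F (TTTNGCGC) and CRE (TGACGTCA) were in 1 each, in Kat5, Dnmt1 and Prmt9, against 3.46%, 1.31% and 1.77%. The NF-κB form searched (GGGA, 2 bases of any kind, TTCC) was in no enzyme window and in 1.36% of all genes. Matches of different motifs may share bases. Genes with a GAS match included a rise, Dnmt3l, and a fall, Setd7. A match describes letters and is no binding site.

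Dnmt3l (chromosome 10, 78042287 to 78063622) had 16.9 and 14.4 CPM in the M1 libraries, against 1.15 and 1.10 CPM in the M0 libraries. Both M1 libraries lay far above both M0 libraries, and the log2 fold change was 3.78 (SE 0.27, adjusted p = 6.4e-07), a 13.8-fold rise. In counts this was 274 and 234 reads in M1 against 24 and 19 in M0. Dnmt3a (chromosome 12, 3801559 to 3914443) had 88.4 and 102 CPM in M1, against 278 and 245 CPM in M0. The groups were well apart here too, and Dnmt3a fell with a log2 fold change of -1.46 (SE 0.11, adjusted p = 1.07e-06). Dnmt3aos, the non-coding RNA on the opposite strand within the Dnmt3a locus, stood at 0.369 and 0.123 CPM in M1 against 1.73 and 1.62 CPM in M0 (log2 fold change -2.73, adjusted p = 0.00894). Exons of Dnmt3a cover 9.60% of the exon length of Dnmt3aos in GENCODE, and without a known strand setting reads from the 2 genes there cannot be told apart.

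Dnmt1, the maintenance methyltransferase that copies methylation after DNA replication, had 114 and 135 CPM in M1, against 184 and 169 CPM in M0. It was lower in both M1 libraries (log2 fold change -0.50, SE 0.11, adjusted p = 0.00327), a call that failed with M0 replicate 1 or M0 replicate 2 left out (adjusted p = 0.11 and 0.0666). Of 16 proliferation markers 2 were higher and 3 lower in M1, and their summed level was 1518 to 1532 CPM in M1 against 1540 to 1658 CPM in M0. Their part in the Dnmt1 result was not tested. Dnmt3b, the other de novo enzyme, was low, at 0.677 and 1.11 CPM in M1 and 1.87 and 1.51 CPM in M0 (adjusted p = 0.208). Per kilobase of annotated exon, the level of Dnmt3l was 5.23 ± 0.58 CPM per kb in M1 (SD, n = 2, as throughout) beside 5.71 ± 0.56 for Dnmt3a in the same cells. In M0 these levels were 0.377 ± 0.012 CPM per kb for Dnmt3l and 15.7 ± 1.4 for Dnmt3a, so the pair stood at like levels in M1 and far apart in M0.

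On the erasing side of DNA methylation, the TET enzymes oxidise methylcytosine. Tet2, a frequent target of mutation in blood cells, had 70.2 and 90.4 CPM in M1, against 51.4 and 46.0 CPM in M0. Both M1 libraries were above both M0 libraries and Tet2 rose by 0.72 on the log2 scale (SE 0.14, adjusted p = 0.0013). That call failed with M0 replicate 1 or M0 replicate 2 left out (adjusted p = 0.0579 and 0.0887). Tet3 had 107 and 123 CPM in M1 and 145 and 124 CPM in M0 and did not pass (log2 fold change -0.22, 95% interval -0.48 to 0.03, adjusted p = 0.13). It passed as lower with upper-quartile factors and on library totals. Tet1 had 7 and 9 counts in M1 against 4 and 0 in M0 and was too low to be tested.

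Writers of H3K4 methylation, a mark of promoters and enhancers, were lower or did not pass. Kmt2c, an enhancer methyltransferase of the MLL family, had 68.2 and 85.5 CPM in M1, against 121 and 107 CPM in M0. The groups did not overlap and Kmt2c fell (log2 fold change -0.57, SE 0.13, adjusted p = 0.00361). With M0 replicate 1 or M0 replicate 2 left out the log2 fold change was -0.48 or -0.65 and the call failed (adjusted p = 0.129 and 0.066). Its closest relative Kmt2d had 101 and 149 CPM in M1 against 179 and 148 CPM in M0 and did not pass (-0.39, adjusted p = 0.0691). Kmt2a, the MLL1 gene, stood at 82.8 and 120.3 CPM in M1 and 151 and 123 CPM in M0 (-0.43, adjusted p = 0.05003), just outside the threshold. Kmt2e, a family member without known methyltransferase activity, stood just inside it at 39.0 and 60.9 CPM in M1 against 77.6 and 62.6 CPM in M0 (-0.49, adjusted p = 0.049998). Kmt2a and Kmt2e therefore differ in their call and hardly in their values. The call of Kmt2e failed with M0 replicate 1, M0 replicate 2 or M1 replicate 1 left out (adjusted p = 0.455, 0.182 and 0.304), and exons of Srpk2 on the opposite strand cover 9.31% of its length. Kmt2a passed as lower in 9 of the 12 alternatives and Kmt2d in 5. Without M1 replicate 2 their adjusted p = 0.000997 and 0.00103, and Kmt2a did not pass with M0 replicate 1, M0 replicate 2 or M1 replicate 1 left out. Kmt2b, by contrast, had 69.2 and 82.5 CPM in M1 and 75.3 and 74.9 CPM in M0, with a log2 fold change of 0.01 (95% interval -0.24 to 0.27).

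Setd1a and Setd1b, the catalytic subunits of the SET1 complexes that place most H3K4 trimethylation, did not pass (log2 fold changes -0.13 and 0.11, adjusted p = 0.607 and 0.555). Gm49388, an annotated gene on the same strand, covers 51.8% of the exon length of Setd1a, so its count is uncertain. Setd7 (chromosome 3, 51515318 to 51560823) encodes a lysine monomethyltransferase of H3K4 and of non-histone proteins. Its level was 50.3 and 58.3 CPM in M1, against 113 and 109 CPM in M0. With both M1 libraries at about the same distance below M0, Setd7 fell by 1.03 on the log2 scale (SE 0.11, adjusted p = 2.16e-05).

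Of the 6 H3K4 erasers 1 was lower and 5 did not pass. Kdm1b, the FAD-dependent demethylase LSD2, was lower, at 18.5 and 16.4 CPM in M1 against 30.4 and 26.0 CPM in M0 (log2 fold change -0.69, SE 0.16, adjusted p = 0.00405), a call that failed with M0 replicate 1 left out (adjusted p = 0.0903). Exons of Dek on the opposite strand cover 9.19% of Kdm1b. Its better known relative Kdm1a, LSD1, did not pass at 88.3 and 92.5 CPM in M1 and 74.9 and 84.1 CPM in M0 (adjusted p = 0.181). None of the 4 Kdm5 genes, the JmjC demethylases of trimethylated H3K4, passed. Kdm5a had 84.9 and 101 CPM in M1 and 111 and 99.3 CPM in M0 (-0.17, 95% interval -0.44 to 0.09). Kdm5b had 29.9 and 34.2 CPM in M1 and 32.6 and 27.7 CPM in M0 (0.09, 95% interval -0.23 to 0.41). Kdm5c on the X chromosome had a log2 fold change of 0.21 (adjusted p = 0.163) and Kdm5d on the Y chromosome one of -0.37 (adjusted p = 0.0892). As lower, Kdm5d passed in 3 of the 12 alternatives and Kdm5a in 1.

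Of the 3 H4K20 methyltransferases 1 rose, 1 fell and 1 did not pass. Kmt5a (chromosome 5, 124439930 to 124462311), which places the first methyl group, had 299 and 279 CPM in M1, against 146 and 153 CPM in M0. It rose by 0.95 on the log2 scale (SE 0.10, adjusted p = 1.07e-05), and with 54.4 ± 2.7 CPM per kb in M1 and 28.1 ± 0.9 in M0 it was among the most abundant writers per length. Kmt5c (chromosome 7, 4740092 to 4747514), which adds the later methyl groups, had 16.997 and 18.9 CPM in M1, against 33.2 and 33.7 CPM in M0. Kmt5c fell (log2 fold change -0.90, SE 0.14, adjusted p = 0.000375), opposite to Kmt5a. Kmt5b, which also adds the later groups, did not pass at 61.0 and 72.2 CPM in M1 and 75.1 and 65.9 CPM in M0 (-0.08, 95% interval -0.36 to 0.19).

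For H3K27 methylation, the polycomb mark, neither catalytic subunit passed. Ezh2 had 39.7 and 35.8 CPM in M1 and 38.9 and 38.4 CPM in M0, with overlapping groups and a log2 fold change of -0.04 (95% interval -0.31 to 0.24). Ezh1 had 57.8 and 62.7 CPM in M1 and 68.0 and 61.3 CPM in M0 (-0.10, 95% interval -0.35 to 0.15). Of the H3K27 demethylases, Kdm6b is known as an LPS-induced gene of macrophages in the first hours. At 24 h it had 16.997 and 21.4 CPM in M1 and 14.8 and 15.1 CPM in M0 and did not pass (0.36, 95% interval -0.03 to 0.75, adjusted p = 0.115). Kdm6a on the X chromosome was lower, at 35.8 and 38.7 CPM in M1 against 52.2 and 45.7 CPM in M0 (-0.40, SE 0.13, adjusted p = 0.0235). The Kdm6a call failed with M0 replicate 1, M0 replicate 2 or M1 replicate 1 left out (adjusted p = 0.207, 0.0731 and 0.0942).

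Among demethylases of H3K9 and H3K36, Kdm4a (chromosome 4, 118136957 to 118180090) showed the firmest rise. This JmjC demethylase of trimethylated H3K9 and H3K36 had 112 and 121 CPM in M1, against 71.1 and 63.8 CPM in M0 (log2 fold change 0.79, SE 0.11, adjusted p = 0.000131). Its paralogs Kdm4b and Kdm4c did not pass (0.15 and -0.23, adjusted p = 0.402 and 0.224), and Kdm4d had no count in any library. The H3K36 demethylases Kdm2a and Kdm2b, which bind unmethylated CpG islands, went in opposite directions. Kdm2a was higher, at 129.6 and 160.2 CPM in M1 against 120.6 and 112 CPM in M0 (0.32, SE 0.12, adjusted p = 0.0459). Kdm2b was lower, at 15.6 and 19.4 CPM in M1 against 27.4 and 28.1 CPM in M0 (-0.67, SE 0.16, adjusted p = 0.0056). Both calls depended on the libraries kept. That of Kdm2a failed with M0 replicate 1, M0 replicate 2 or M1 replicate 2 left out (adjusted p = 0.196, 0.314 and 0.275). It failed also on library totals, with upper-quartile factors and with the replicate number as a block (adjusted p = 0.679, 0.156 and 0.069). That of Kdm2b failed with M0 replicate 1 or M0 replicate 2 left out (adjusted p = 0.0829 and 0.0898). The H3K9 demethylases Kdm3a and Kdm3b, Kdm7a, which acts on H3K9 and H3K27, and Kdm8 did not pass, with log2 fold changes between -0.16 and 0.19.

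Setd2, the enzyme of H3K36 trimethylation along transcribed genes, had 87.0 and 111 CPM in M1 and 129 and 110 CPM in M0 and did not pass (log2 fold change -0.27, 95% interval -0.56 to 0.03). Further SET-domain genes that did not pass were Setd3, the actin histidine methyltransferase, with -0.18, Setd4 with -0.17, Setd5 with 0.22, and Setd6, which methylates RelA in the NF-κB pathway, with -0.42 (adjusted p = 0.119 to 0.695). Setd5 passed as higher without M1 replicate 1. In all, 1 of the 18 genes in the lysine methyltransferase class was higher and 4 were lower, beside 2 higher and 3 lower of 17 tested lysine demethylases. The class was set by family and includes Setd3 and, among the lower, Kmt2e.

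Histone acetyltransferases gave 1 rise (11.1%) and 2 falls (22.2%) among 9, beside 24.2% and 24% of all tested genes. Kat2b, the PCAF gene, had 81.8 and 95.6 CPM in M1, against 61.9 and 55.0 CPM in M0. It rose by 0.60 on the log2 scale (SE 0.12, adjusted p = 0.00185), a call that failed with M0 replicate 2 left out (adjusted p = 0.0828). Kat6b, a MYST-family acetyltransferase, fell, with 12.4 and 12.8 CPM in M1 against 22.8 and 18.1 CPM in M0 (-0.70, SE 0.18, adjusted p = 0.00769), a call that failed with M0 replicate 1 left out (adjusted p = 0.116). Ep300 and Crebbp encode the paired coactivators p300 and CBP, which acetylate H3K27 at enhancers. Ep300 had 111 and 149 CPM in M1, against 179 and 157 CPM in M0, and was lower (-0.37, SE 0.14, adjusted p = 0.0443). The Ep300 call failed with M0 replicate 1, M0 replicate 2 or M1 replicate 1 left out (adjusted p = 0.387, 0.179 and 0.277). Crebbp had 40.9 and 45.7 CPM in M1 and 51.9 and 52.3 CPM in M0 and did not pass (-0.27, adjusted p = 0.0868). For Kat2a, Kat5, Kat6a, Kat7 and Kat8, catalytic subunits of the SAGA, TIP60, MOZ, HBO1 and MOF complexes, the log2 fold changes lay between -0.31 and 0.22 (adjusted p = 0.154 to 0.856). Kat6a passed as higher without M1 replicate 1. As lower, Crebbp passed in 2 of the 12 alternatives and Kat8 in 1. The pseudogene Kat2b-ps stood at 3.76 and 5.35 CPM in M1 and 2.01 and 3.01 CPM in M0 (adjusted p = 0.0812), and reads shared with Kat2b are uncertain.

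Of 18 deacetylases 3 were higher (16.7%) and 6 lower (33.3%), beside 24.2% and 24% of all tested genes. The called share was 50%, near the 48.2% of all tested genes. Hdac1 (chromosome 4, 129516104 to 129542646), a class I enzyme of the Sin3, NuRD and CoREST corepressors, had 55.3 and 52.2 CPM in M1, against 21.3 and 21.9 CPM in M0. The libraries of each group lay close together, and Hdac1 rose by 1.31 on the log2 scale (SE 0.13, adjusted p = 6.87e-06), a 2.49-fold rise. Its paralog and partner Hdac2 had 128 and 125 CPM in M1, against 90.7 and 99.0 CPM in M0 (0.41, SE 0.10, adjusted p = 0.00607). That call failed with M0 replicate 1 or M0 replicate 2 left out (adjusted p = 0.11 and 0.0559) and on library totals (adjusted p = 0.204). Per kilobase the level of Hdac1 was 15.6 ± 0.64 CPM per kb in M1 and 6.27 ± 0.10 in M0. By the same measure Hdac2 stood at 28.2 ± 0.39 in M1 and 21.2 ± 1.3 in M0. Hdac3, the catalytic subunit of the NCoR and SMRT corepressors, had 54.7 and 57.4 CPM in M1 and 50.04 and 47.8 CPM in M0 and did not pass (0.19, 95% interval -0.05 to 0.44). Hdac8, the remaining class I enzyme, had 5.17 and 2.28 CPM in M1 and 2.73 and 5.68 CPM in M0 (adjusted p = 0.795).

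Class IIa enzymes, which bind MEF2 factors and have little deacetylase activity of their own, had 2 falls and no rise among 4. Hdac5 (chromosome 11, 102195747 to 102230172) had 54.1 and 42.8 CPM in M1, against 88.8 and 93.2 CPM in M0 (log2 fold change -0.91, SE 0.13, adjusted p = 0.000156). Hdac4 had 21.3 and 21.4 CPM in M1, against 39.4 and 29.1 CPM in M0 (-0.68, SE 0.17, adjusted p = 0.00585). The Hdac4 call failed with M0 replicate 1 left out (adjusted p = 0.115), and Gm26720 on the opposite strand covers 22.4% of its exon length. Hdac7 had 12.1 and 9.60 CPM in M1 and 12.7 and 14.1 CPM in M0 and did not pass (-0.31, 95% interval -0.75 to 0.13). Neither did Hdac9, with 14.3 and 16.002 CPM in M1 and 22.3 and 15.4 CPM in M0, where the groups overlapped (-0.32, 95% interval -0.76 to 0.12). Hdac6, the tubulin deacetylase on the X chromosome, was lower, at 18.7 and 21.4 CPM in M1 against 29.7 and 33.5 CPM in M0 (-0.66, SE 0.15, adjusted p = 0.00402), a call that failed with M0 replicate 2 left out (adjusted p = 0.0835). Hdac10, known for deacetylating polyamines, did not pass (-0.15, adjusted p = 0.478). Hdac11 had 5 and 1 counts in M1 against 25 and 9 in M0, and its log2 fold change of -2.20 did not pass (adjusted p = 0.0689).

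Sirtuins split between Sirt6, which was higher, and Sirt1, Sirt2 and Sirt3, which were lower. Sirt1 (chromosome 10, 63319005 to 63339035), known for deacetylating histones, p53 and the NF-κB subunit RelA, had 22.9 and 25.4 CPM in M1, against 50.9 and 47.5 CPM in M0. It fell by 1.03 on the log2 scale (SE 0.13, adjusted p = 6.73e-05), and the groups were far apart relative to the spread within them. Sirt6, a nuclear deacetylase of H3K9, had 17.4 and 15.7 CPM in M1, against 9.45 and 6.49 CPM in M0. Its log2 fold change was 1.04 (SE 0.22, adjusted p = 0.00244), and the call failed with M0 replicate 2 left out (adjusted p = 0.0547). Sirt2, largely cytoplasmic, had 46.2 and 62.3 CPM in M1, against 70.6 and 73.8 CPM in M0 (-0.41, SE 0.14, adjusted p = 0.0335). Sirt3, the main mitochondrial deacetylase, had 5.73 and 3.32 CPM in M1, against 8.25 and 7.77 CPM in M0 (-0.82, SE 0.30, adjusted p = 0.0413). The calls of Sirt2 and Sirt3 hung on several libraries. Sirt2 failed with M0 replicate 1, M0 replicate 2 or M1 replicate 1 left out (adjusted p = 0.208, 0.267 and 0.22), and Sirt3 with M0 replicate 1, M0 replicate 2 or M1 replicate 2 left out (adjusted p = 0.24, 0.194 and 0.212). Sirt3 also failed in DESeq2 with all libraries (adjusted p = 0.0649). Exons of opposite-strand genes, Ric8a and Psmd13, cover 12.7% of Sirt3. Sirt4, Sirt5 and Sirt7 did not pass, with log2 fold changes of -0.37, 0.45 and -0.08 (adjusted p = 0.183, 0.27 and 0.556).

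Arginine methyltransferases gave 3 rises, no fall and 4 genes that did not pass. The called share was 42.9%, beside 48.2% of all tested genes (24.2% higher, 24% lower). Prmt1, which makes most asymmetric dimethylarginine in cells, had 206 and 176 CPM in M1, against 135 and 132 CPM in M0 (log2 fold change 0.52, SE 0.11, adjusted p = 0.0021). At 55.8 ± 6.3 CPM per kb in M1 and 39.0 ± 0.7 in M0 it had the highest mean of the enzyme genes per length. In M1 the lead over Kmt5a lay within the spread, and in M1 replicate 2 Kmt5a stood above Prmt1 (52.5 against 51.3 CPM per kb). Prmt5, the main enzyme of symmetric dimethylarginine, had 72.4 and 81.2 CPM in M1, against 52.2 and 49.7 CPM in M0 (0.59, SE 0.11, adjusted p = 0.00137). Prmt9, which methylates the splicing factor SF3B2, had 35.0 and 40.1 CPM in M1, against 29.6 and 22.0 CPM in M0 (0.54, SE 0.16, adjusted p = 0.019). All 3 rises were modest, and each call failed with M0 replicate 2 left out, with adjusted p = 0.0833 for Prmt1, 0.0604 for Prmt5 and 0.198 for Prmt9. Prmt1 failed also with M0 replicate 1 left out (adjusted p = 0.0746), and Prmt9 with M1 replicate 2 left out (adjusted p = 0.0771). On library totals Prmt1 and Prmt9 did not pass (adjusted p = 0.0545 and 0.175). Prmt3, Prmt6 and Prmt7 did not pass (0.03, 0.15 and 0.13), nor did Prmt2 (-0.38, adjusted p = 0.0586). Prmt2 passed as lower with upper-quartile factors and on library totals.

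Levels of writers and erasers were also summed per library, as CPM per kilobase of annotated exon. Over all enzymes the sum was 365 and 387 for writers in M1 against 364 and 343 in M0, and 255 and 269 for erasers in M1 against 254 and 248 in M0. Writers stood above erasers by the same measure in every library, with ratios of 1.43 and 1.44 in M1 and 1.43 and 1.38 in M0. A large part of the writer sums came from Prmt1, with means of 55.8 in M1 and 39.0 in M0, and Kmt5a, with 54.4 and 28.1. Among erasers the highest mean was that of Hdac2, at 28.2 in M1 and 21.2 in M0. Ratios without these genes were not computed. The DNA methylation enzymes differed most: DNMT1, DNMT3A and DNMT3B transcripts over TET transcripts gave ratios of 1.96 and 1.93 in M1, against 3.58 and 3.73 in M0. The gap lay in the writers, at 20.9 and 24.7 CPM per kb in M1 against 42.0 and 38.0 in M0, while TET sums overlapped at 10.6 and 12.8 in M1 and 11.7 and 10.2 in M0. For H3K4 the ratio of KMT2A to KMT2D and SET1 transcripts over LSD and KDM5 transcripts was 0.607 and 0.726 in M1 and 0.833 and 0.779 in M0. For H3K27 the ratio of Ezh1 and Ezh2 over Kdm6a and Kdm6b was 2.04 and 1.79 in M1 and 1.79 and 1.83 in M0, with overlapping groups. Acetyltransferases over deacetylases gave 0.656 and 0.769 in M1 and 0.701 and 0.653 in M0, again overlapping. These sums are descriptions over members that were not tested as groups, and different exon usage would move them.

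**Figure D3:**
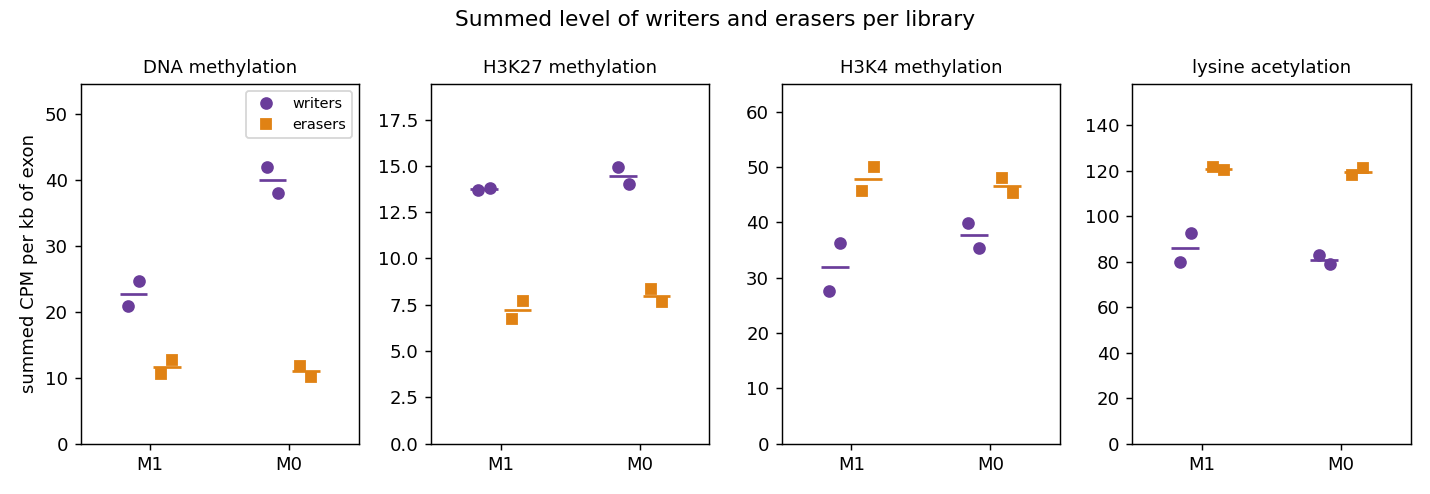
Summed CPM per kb of exon of writers (purple circles) and erasers (orange squares) in each library for 4 kinds of mark, M1 left of M0, with a line at each mean. Writers of DNA methylation sat at 20.9 and 24.7 in M1 and at 42.0 and 38.0 in M0, and in the other 3 panels the groups overlapped, except for H3K27 writers at 13.7 and 13.8 in M1 and 15.0 and 14.0 in M0.

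Differences between the libraries of a group followed gene length. Of the 29 tested enzymes with at least 8 kb of annotated exon, 28 were higher in M1 replicate 2 than in M1 replicate 1, with a median ratio of 1.19, and 26 were higher in M0 replicate 1 than in M0 replicate 2. Among the 46 shorter enzymes 25 were higher in M1 replicate 2 and the median ratio was 1.03. The longer set held 2 higher and 10 lower calls of M1 over M0 and the shorter set 10 higher and 7 lower, with medians of -0.27 and -0.04 on the log2 scale. Over all tested genes of any length 24.2% were called higher and 24% lower. The called shares of all longer and of all shorter genes were not computed. Over all tested genes with an annotated length the medians were -0.22 for 2204 longer and 0.03 for 10540 shorter genes. Over those genes, length correlated with the replicate 2 over replicate 1 ratio at 0.26 in M1 and -0.26 in M0 (Spearman). For the enzymes the same correlations were 0.55 and -0.35. The 8 kb limit was chosen after values had been seen, and the part of length in the falls of the long enzymes Kmt2c, Kmt2e and Ep300 was not tested. Dnmt3a, Setd7, Hdac4, Hdac5, Kat6b, Kdm2b and Kdm6a were also in the longer set, and the part of length in their falls was not tested either.

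**Figure D4:**
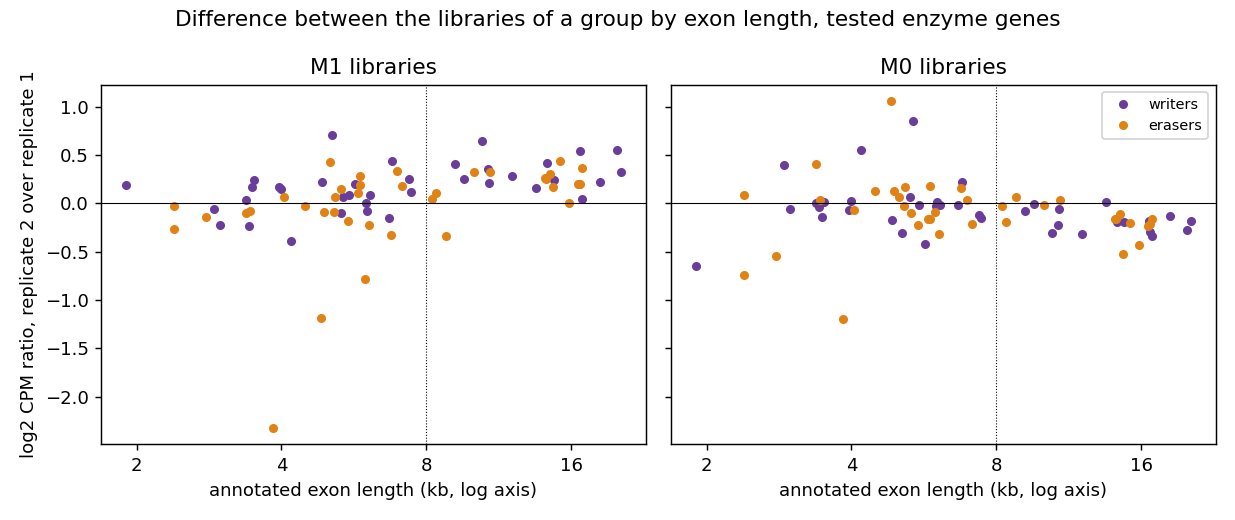
Log2 ratio of replicate 2 over replicate 1 against annotated exon length on a log axis for the 75 tested enzymes, in M1 (left) and M0 (right), with a dotted line at 8 kb. To the right of that line 28 of 29 points lie above 0 in M1 and 26 of 29 lie below 0 in M0.

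Partners of these enzymes were taken from fixed lists. Their counts stand beside 24.2% higher and 24% lower of all tested genes. Of 33 corepressor subunits that carry HDAC1, HDAC2 and HDAC3, 2 were higher (6.1%) and 11 lower (33.3%), with a median log2 fold change of -0.07. Sap30 and Sin3b, both of the Sin3 complex, rose by 1.52 and 0.73 on the log2 scale (adjusted p = 6.57e-06 and 0.000218), while the largest falls were those of Trerf1 (-1.48), Mier1 (-0.84) and the NuRD remodeller Chd3 (-0.79). Polycomb partners gave 5 higher (22.7%) and 4 lower (18.2%) of 22, near the shares of all tested genes. Eed, the core PRC2 subunit that binds methylated H3K27, rose to 88.0 ± 6.3 CPM in M1, against 57.9 ± 2.0 CPM in M0 (0.60), along with Pcgf5 (0.61). The PRC1 readers Cbx7 and Cbx8 fell by 2.24 and 1.88, and the PRC2 accessory gene Phf1 fell by 0.81. COMPASS subunits, which serve the KMT2 and SET1 enzymes, gave 1 higher, Cxxc1 (0.49), and 2 lower, Paxip1 (-0.38) and Ncoa6 (-0.35), of 12.

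Methyltransferases outside the symbol rule gave 4 higher and 3 lower of 19, among them Setdb2, an interferon-inducible gene of H3K9 methylation, at 38.4 ± 2.9 CPM in M1 against 14.5 ± 0.005 CPM in M0 (1.40). Other JmjC proteins gave 3 higher and 2 lower of 13, with Riox2 (1.40) and Jmjd6 (0.79) higher and Phf2 (-0.77) and Jmjd1c (-0.58) lower. Other acetyltransferases and their subunits gave 4 higher, with Hat1 first (0.98), and 5 lower, with Ncoa3 first (-0.89), of 16. Readers of acetyl-lysine gave 3 higher, Baz1a (0.58), Brd2 (0.43) and Brd7 (0.30), and 3 lower, Atad2 (-0.57), Brwd3 (-0.51) and Brd3 (-0.50), of 21. Of 18 readers and repair genes of DNA methylation 3 were higher and 6 lower. Gadd45b, which takes part in active demethylation, rose to 115 ± 2.8 CPM in M1, against 20.2 ± 0.3 CPM in M0 (2.52), and Tdg, the glycosylase that removes oxidised methylcytosine, rose by 0.55. In the same list Mbd4 fell by 0.91 and Gadd45a did not pass (-0.09). The methyl-CpG binding genes Zbtb38 and Zbtb4 fell by 1.49 and 1.33, and the CXXC zinc-finger gene Cxxc5 fell by 2.66. Cofactors and readers of arginine methylation gave 2 higher and 3 lower of 9. Each count here stands beside 24.2% higher and 24% lower of all tested genes.

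Genes that supply methyl and acetyl groups and co-substrates gave 6 higher (26.1%) and 5 lower (21.7%) of 23. This was near the 24.2% higher and 24% lower of all tested genes. In the folate cycle Mthfd2 rose to 182 ± 9.1 CPM in M1, against 84.5 ± 5.2 CPM in M0 (1.11). The acetyl-CoA synthetases went apart, with cytosolic and nuclear Acss2 higher by 1.13 and mitochondrial Acss1 lower, at 0.800 ± 0.436 CPM in M1 against 15.97 ± 0.13 CPM in M0 (-4.31). Idh1 and Idh2, which make alpha-ketoglutarate from isocitrate, fell by 1.76 and 0.60 on the log2 scale.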

How the data were processed

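Per the labels' protocols, Trizol was used to extract macrophage RNA, and ribosomal RNA was removed after a DNase step. The deposited values are raw counts per gene symbol, made by the authors. The submitters' processing notes name Subread 2.0.1, featureCounts, the build mm10, DESeq2 1.30.1 and R 4.0.4. The annotation, strand setting and gene filter are not given in the sources used here. Of 18256 symbols, 943 had no count.

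Of the listed genes 12966 passed filterByExpr in edgeR 4.0.16, at a minimum count of 10 and a minimum total of 15. TMM factors were 0.911 and 0.922 for M1 and 1.10 and 1.08 for M0. The test of M1 over M0 was the quasi-likelihood F test of edgeR (R 4.3.3), and p-values were adjusted after Benjamini and Hochberg across the whole table. Variation between the libraries of a group beyond counting noise came to 10.9% (square root of the common dispersion), on 2 residual degrees of freedom. Standard errors were derived from the F statistic. The script was tested on simulated data. Exon lengths and overlaps came from GENCODE M21, gene positions and promoter sequences from RefSeq GRCm38.p6, the assembly that mm10 names. Intervals and floors cover counting error only, except the 95% intervals of fold changes, which come from the fit.

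The symbol rule, roles and partner lists were chosen with earlier results of these data known. Values per library are given for up to 3 called rises and 3 called falls of largest size in each of 7 role classes with at least 1 CPM and no overlap of libraries, and for 20 genes fixed by name. Some genes counted in the marker and partner lists are not reported by name here. Other members are given so that each is accounted for, and their per-library values, the motifs and the 8 kb limit were chosen after the values were seen. Alternatives were 3 other scalings, DESeq2 1.42.0, limma-voom (limma 3.58.1), 2 other filters, the replicate number as a block and each library left out.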

Additional observations from a re-analysis of the deposited data

How the results depend on the processing

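Of the 75 tested enzymes, those called were never reversed under any of the 12 alternatives. Counts of higher and lower enzymes were 12 and 17. On library totals the lower count was 37 (18 writers and 19 erasers), and with upper-quartile factors 14 writers were lower in place of 8. With each library left out in turn, 4 to 14 enzymes were higher and 6 to 20 lower, with 2 to 8 higher and 3 to 11 lower writers and 2 to 6 higher and 3 to 9 lower erasers. A fit that leaves out an M0 or M1 library assumes that the lone library varies like the other group. The replicate numbers are in the titles, but no label ties same-numbered libraries, and deviations of replicate 1 in the 2 groups correlated at -0.08 across 12034 genes. The replicate block gave 11 higher and 19 lower enzymes: Kdm2a lost its call, and Kmt2a and Kmt2d passed as lower. DESeq2 and limma-voom gave 12 higher with 17 and 18 lower, relative log expression factors and the stricter filter 12 and 18, and no filter 12 and 19. Depth limits Dnmt3b, Hdac11 and Tet1, with at most 39, 25 and 9 counts in a library.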
